A study of Mus musculus with 6 samples.

Results

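The genes described here are 36 genes of fatty acid oxidation, peroxisomes and the targets of the nuclear receptor PPARA, chosen by annotated symbol. Of these, 35 were measured among 19933 genes with a named probe set, and Ucp2 was not analysed here. Affymetrix Gene 1.0 ST arrays recorded RNA levels in epithelial cells isolated from the mouse jejunum, the middle stretch of the small intestine, on 3 arrays per group that the labels call biological replicates. The 3 mice titled transgenic had the genotype TRE-MSI2::R26-M2rtTA, in which a tetracycline-responsive promoter drives MSI2, a Musashi-family RNA-binding protein, and the 3 controls had R26-M2rtTA alone. All 6 animals carried the M2rtTA transactivator at Rosa26, a locus active in most tissues, so the transgene is not confined to the epithelium by its driver. All 6 also drank doxycycline for 24 hours before isolation, the controls included. Strain, age and housing are not given in the sources used here. Values are log2 expression per probe set, and each log2 fold change is transgenic minus control.

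Long-chain fatty acids enter mitochondria as carnitine esters and are shortened there in repeated turns of dehydrogenation, hydration, a second dehydrogenation and thiolysis. The electrons of the first step pass through the electron transfer flavoprotein to the respiratory chain. Peroxisomes shorten very long and branched chains and pass the products on to mitochondria. PPARA, partnered with a retinoid X receptor, binds fatty acids as ligands and activates many of these genes in liver and in villus enterocytes, and PPARGC1A, a transcriptional coactivator, works with it on mitochondrial genes.

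The labels were checked on the Musashi genes first. Msi2 had values of 11.23, 10.58 and 11.44 in the arrays labelled transgenic, against 11.30, 9.53 and 9.32 in the controls, so control replicate 1 lay with the transgenic arrays and the difference did not pass (adjusted p = 0.257). Msi1 did separate the labels, with 12.82 to 13.53 in the arrays labelled transgenic and 7.20 to 7.97 in the controls. The stated genotype names MSI2, so the Musashi gene that separated the groups is not the one it names. The reason was not tested. All directions below are therefore drawn between arrays labelled transgenic and arrays labelled control. Control replicate 1 also correlated less with the other controls over all probe sets (0.981 and 0.982) than these did with each other (0.996). Epithelial genes such as Epcam and Krt8 were high on all arrays, at 12.60 to 13.99. Of 10 epithelial markers 2 rose (Cdh1 and Krt18) and 3 fell (Vil1, Cdx1 and Cdx2), which is 50%, against 18.6% of all genes. Of these calls only that of Krt18 held without any single array. With sex as a block Krt18 and Cdx2 alone passed (adjusted p = 0.0137 and 0.0429). Probe sets for Y-linked genes in females and for Xist in males spanned 4.07 to 5.06, and a value in that range is called dim here.

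Genes of fatty acid oxidation in mitochondria and in peroxisomes fell in the arrays labelled transgenic. Of the 35 genes, 14 fell and 3 rose (17 in all, or 48.6%, against 18.6% of all genes tested) at an adjusted p under 0.05 in limma, a linear model fitted over all genes, and 18 did not pass. Those that fell made up 40.0% of the 35, against 9.65% of all genes, while those that rose made up 8.57%, against 8.97%, which is no more than the background. The genes that fell were Cpt2, Crat, Acadm, Acads, Hadh, Eci1, Decr1, Etfa, Hsd17b4, Acaa1b, Decr2, Hacl1, Abcd3 and Ppargc1a. The genes that rose were Acadl, Acot1 and Acot2. The median log2 fold change was -0.53 over the 35 genes and 0.02 over all genes, and the groups did not overlap for 24 of the 35 genes (68.6%, against 37% of all genes), with 7 higher (19.5% of all genes) and 17 lower (17.5%). Of the 17 genes called, 10 fell and 2 rose by at least 1 log2 unit.

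The number of calls rested on the array set. The labels number the replicates in both groups, and with that number as a block 18 genes fell and 7 rose (25 of 35, against 25.8% of all genes, of which 13.1% lower and 12.7% higher), with all 17 calls kept. Without control replicate 1, 21 fell and 4 rose (also 25 of 35, against 27.8% of all genes, of which 14.4% lower and 13.4% higher), again with the 17 kept. Without control replicate 2 or 3, 4 fell and 2 rose, without transgenic replicate 1, 6 fell and 3 rose, and without transgenic replicate 3, 6 fell and 2 rose. In these 4 fits the calls over all genes also dropped, to between 4.78% and 6.87%. Sex, entered as a block, left 7 falls and 3 rises (10.8% of all genes called, of which 5.47% lower and 5.36% higher). The 7 calls lost were those of Cpt2, Crat, Hadh, Decr1, Etfa, Hsd17b4 and Acaa1b (adjusted p = 0.0504 to 0.0847), which left no call in the carnitine shuttle and none in the electron transfer flavoprotein. Acadl, Acads, Eci1, Abcd3 and Ppargc1a kept their call without any single array.

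**Figure D1:**
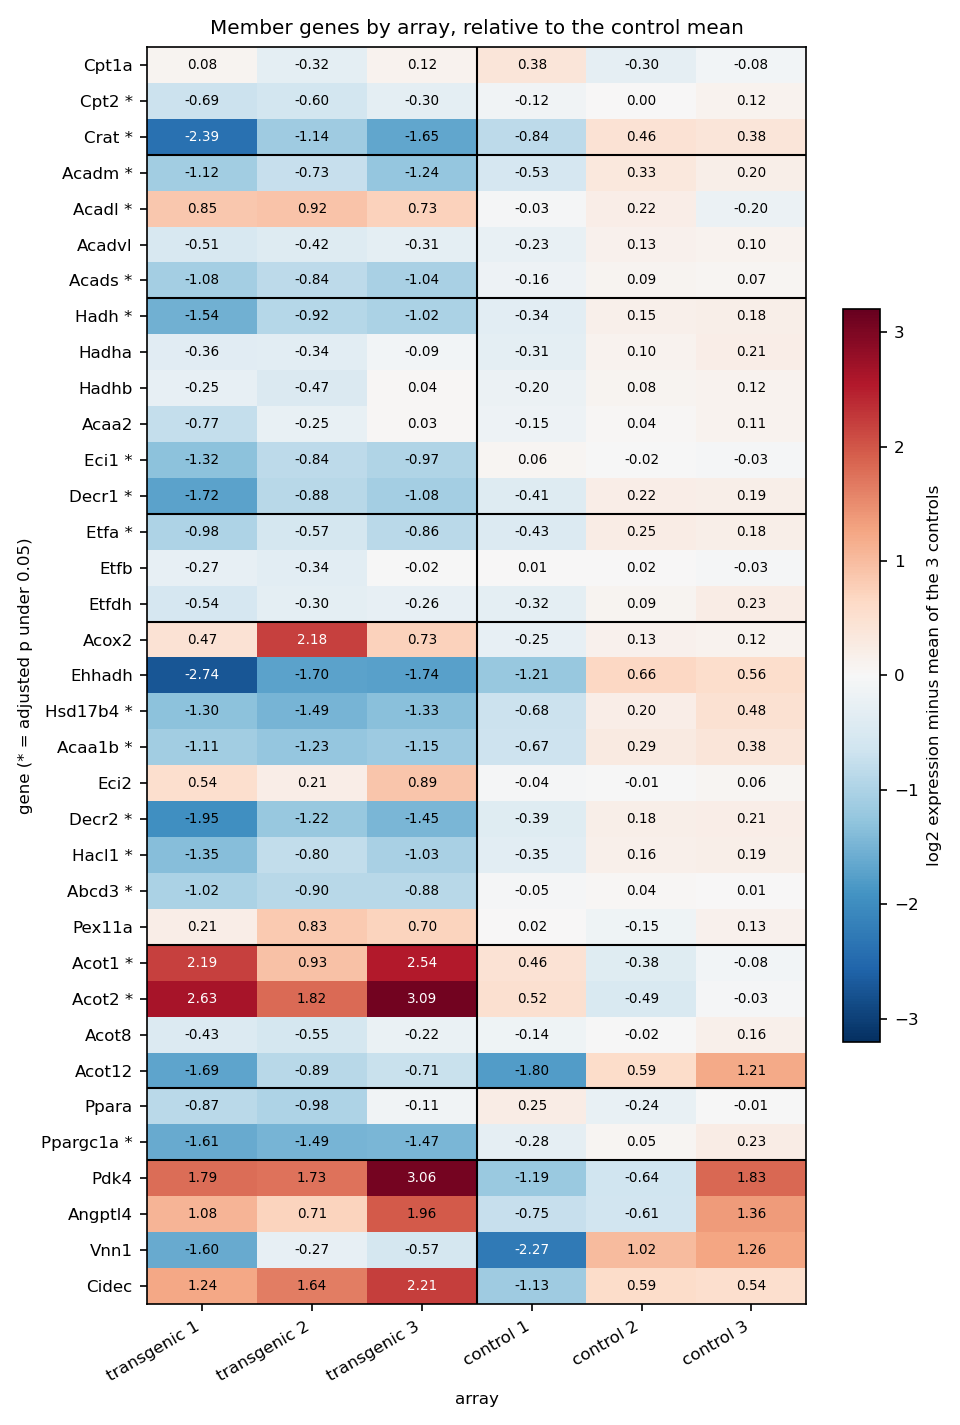
Log2 expression of the 35 genes (rows, grouped by role) on each array (columns, transgenic left of control), relative to the mean of the 3 controls, with the value printed in each cell and an asterisk for an adjusted p under 0.05. Blue rows dominate the transgenic columns, the thioesterases Acot1 and Acot2 are red there at 0.93 to 3.09, and control 1 is bluer than the other controls in rows such as Vnn1 (-2.27) and Ehhadh (-1.21).

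The carnitine shuttle carries acyl groups across the mitochondrial membranes. Of the 3 shuttle genes among the 35, 2 fell (66.7%, against 9.65% of all genes lower). The carnitine transporter genes Slc25a20 and Slc22a5, outside the 35, did not pass (log2 fold changes 0.23 and -0.22, adjusted p = 0.515 and 0.723). Crat, the carnitine acetyltransferase that buffers acetyl-CoA, had values of 8.25, 9.51 and 8.99 in the arrays labelled transgenic, against 9.80, 11.11 and 11.03 in the controls. Its level was 3.31-fold lower (log2 fold change -1.73, SE 0.45, adjusted p = 0.047), and although the groups did not overlap, control replicate 1 differed from the mean of the other controls by -1.26. Cpt2, which returns acyl groups to CoA on the inner membrane, had values of 10.12, 10.22 and 10.51 in the arrays labelled transgenic, against 10.69, 10.82 and 10.93 in the controls. All 3 transgenic values of Cpt2 were under the lowest control, and it fell by 0.53 on the log2 scale (SE 0.13, adjusted p = 0.0364). Cpt1a, the outer-membrane enzyme that sets the rate of entry, had values of 11.25, 10.86 and 11.30 in the arrays labelled transgenic, against 11.56, 10.88 and 11.09 in the controls. The Cpt1a groups overlapped (log2 fold change -0.04, SE 0.21, adjusted p = 0.919), and the sign of its fold change was not stable. Crat lost its call without transgenic replicate 1, transgenic replicate 3, control replicate 2 or control replicate 3 (adjusted p = 0.127 to 0.156), and Cpt2 without transgenic replicate 1, transgenic replicate 2, control replicate 2 or control replicate 3 (adjusted p = 0.0769 to 0.128). Both calls were also lost with sex as a block, at an adjusted p of 0.0847 for Crat and 0.0765 for Cpt2.

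The acyl-CoA dehydrogenases catalyse the first oxidation of each turn, each on its own range of chain lengths, and they did not move together. Acads, the short-chain enzyme, had values of 8.33, 8.58 and 8.38 in the arrays labelled transgenic, against 9.25, 9.51 and 9.49 in the controls. Acadm, the medium-chain enzyme, had values of 9.90, 10.28 and 9.77 in the arrays labelled transgenic, against 10.48, 11.35 and 11.21 in the controls. Both fell with groups that did not overlap, Acads by 0.99 on the log2 scale (SE 0.11, adjusted p = 0.00515) and Acadm by 1.03 (SE 0.26, adjusted p = 0.0404). Acadl, the long-chain enzyme, went the other way, with values of 11.49, 11.56 and 11.37 in the arrays labelled transgenic, against 10.61, 10.86 and 10.44 in the controls. Each transgenic value of Acadl was above all controls, a 1.78-fold higher level (log2 fold change 0.83, SE 0.13, adjusted p = 0.011), and the call held without any single array, where its highest adjusted p was 0.0455. Acadvl, which handles very long chains on the inner membrane, had values of 8.75, 8.84 and 8.95 in the arrays labelled transgenic, against 9.03, 9.39 and 9.37 in the controls. Its groups did not overlap either, but it did not pass (log2 fold change -0.41, SE 0.12, adjusted p = 0.0654), while it did with the replicate block (adjusted p = 0.0343) and without control replicate 1 (adjusted p = 0.0119). The call of Acadm was lost without transgenic replicate 1, transgenic replicate 3, control replicate 2 or control replicate 3 (adjusted p = 0.123 to 0.14).

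Among the enzymes of the later steps, those acting on short chains and on unsaturated fatty acids fell, while the subunits of the trifunctional protein did not pass. Hadh, the hydroxyacyl-CoA dehydrogenase of medium and short chains, had values of 11.61, 12.22 and 12.12 in the arrays labelled transgenic, against 12.81, 13.30 and 13.32 in the controls. Decr1, the dienoyl-CoA reductase needed for polyunsaturated chains, had values of 8.58, 9.42 and 9.22 in the arrays labelled transgenic, against 9.89, 10.52 and 10.49 in the controls. Eci1, an isomerase that moves double bonds into line for the next turn, had values of 8.08, 8.57 and 8.44 in the arrays labelled transgenic, against 9.46, 9.38 and 9.37 in the controls. For all 3 genes every transgenic array was below every control, and for Eci1 the controls lay close together (SD 0.05). They were 2.24-, 2.34- and 2.06-fold lower, with log2 fold changes of -1.16 (SE 0.21, adjusted p = 0.0187), -1.23 (SE 0.27, adjusted p = 0.0291) and -1.04 (SE 0.13, adjusted p = 0.00734). Hadha and Hadhb encode the subunits of the mitochondrial trifunctional protein, which carries out the last steps on long chains, and lie head to head, with start regions that share 228 of 300 bases in the RefSeq windows. Hadha had values of 11.24, 11.26 and 11.51 in the arrays labelled transgenic, against 11.29, 11.71 and 11.81 in the controls, and Hadhb of 10.54, 10.32 and 10.82 in the arrays labelled transgenic, against 10.59, 10.87 and 10.90 in the controls. Their groups overlapped and their log2 fold changes were -0.26 (SE 0.16, adjusted p = 0.32) and -0.23 (SE 0.16, adjusted p = 0.381), with Hadha passing without control replicate 1 (-0.42, adjusted p = 0.0448). The thiolase Acaa2 was similar, at 11.48 ± 0.40 in the arrays labelled transgenic and 11.81 ± 0.14 in the controls (SD, n = 3 each) (adjusted p = 0.34). Hadh lost its call without transgenic replicate 3, control replicate 2 or control replicate 3 (adjusted p = 0.0643 to 0.0785), and Decr1 without transgenic replicate 1, transgenic replicate 3, control replicate 2 or control replicate 3 (adjusted p = 0.0656 to 0.11). With sex as a block the adjusted p was 0.0504 for Hadh and 0.0679 for Decr1.

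The electron transfer flavoprotein takes electrons from the acyl-CoA dehydrogenases, and of its genes Etfa alone passed. Etfa, the alpha subunit, had values of 9.47, 9.88 and 9.60 in the arrays labelled transgenic, against 10.02, 10.70 and 10.64 in the controls. The groups did not overlap and Etfa fell by 0.80 on the log2 scale (SE 0.21, adjusted p = 0.0464), a call lost without transgenic replicate 1, transgenic replicate 3, control replicate 2 or control replicate 3 (adjusted p = 0.143 to 0.154). The adjusted p of Etfa with sex as a block was 0.0693. Etfdh, the oxidoreductase that hands the electrons to ubiquinone, had values of 9.81, 10.04 and 10.09 in the arrays labelled transgenic, against 10.02, 10.44 and 10.58 in the controls. Etfb, the beta subunit, was at 11.04 ± 0.17 in the arrays labelled transgenic and 11.25 ± 0.03 in the controls (SD, n = 3 each). Neither passed, with log2 fold changes of -0.37 (SE 0.16, adjusted p = 0.179) and -0.21 (SE 0.10, adjusted p = 0.21), although Etfdh did with the replicate block (adjusted p = 0.0478) and without control replicate 1 (adjusted p = 0.024). Whether the fold change of Etfa differs from those of Etfb and Etfdh was not tested.

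**Figure D2:**
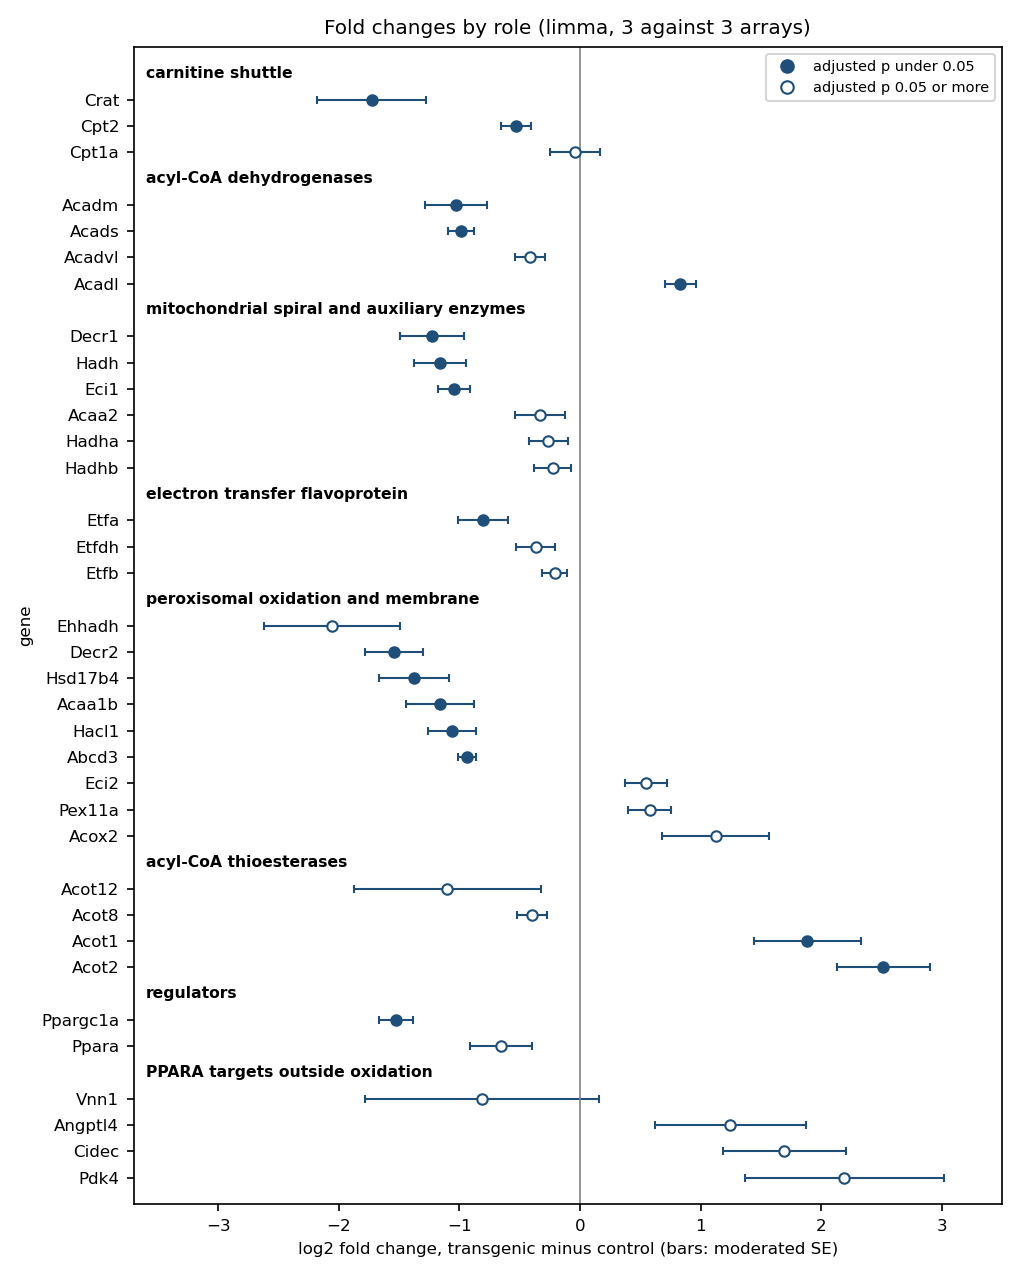
Log2 fold change of each gene, transgenic minus control, with its moderated standard error, grouped by role; filled points have an adjusted p under 0.05 over all genes. Filled points lie left of 0 except for Acadl (0.83), Acot1 (1.89) and Acot2 (2.51), and Vnn1, Pdk4, Acot12 and Angptl4 have the widest bars.

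Of the 9 genes of peroxisomal oxidation and of the peroxisomal membrane 5 fell (55.6%, against 9.65% of all genes lower), and the median log2 fold change of the 9 was -1.06. Decr2, the peroxisomal counterpart of Decr1, had values of 7.85, 8.58 and 8.35 in the arrays labelled transgenic, against 9.41, 9.98 and 10.01 in the controls. Hsd17b4, the bifunctional enzyme of the peroxisomal cycle for branched and very long chains, had values of 9.22, 9.04 and 9.19 in the arrays labelled transgenic, against 9.85, 10.73 and 11.00 in the controls. Abcd3, an abundant peroxisomal membrane transporter of acyl-CoA, had values of 10.24, 10.37 and 10.38 in the arrays labelled transgenic, against 11.21, 11.30 and 11.27 in the controls. No transgenic array reached the control range in any of the 3 genes, and Abcd3 had the smallest spread, with a fall of 0.93 on the log2 scale (SE 0.08, adjusted p = 0.00242) that held without any single array. Decr2 was 2.91-fold lower (log2 fold change -1.54, SE 0.24, adjusted p = 0.0124) and Hsd17b4 2.59-fold lower (log2 fold change -1.37, SE 0.29, adjusted p = 0.0264). Hacl1, a lyase of the alpha-oxidation of branched chains, had values of 6.16, 6.72 and 6.49 in the arrays labelled transgenic, against 7.17, 7.67 and 7.71 in the controls. Acaa1b, a peroxisomal thiolase, had values of 4.74, 4.62 and 4.70 in the arrays labelled transgenic, against 5.17, 6.14 and 6.22 in the controls. Hacl1 fell by 1.06 (SE 0.20, adjusted p = 0.0199) and Acaa1b by 1.16 (SE 0.28, adjusted p = 0.0373), and because all 3 transgenic values of Acaa1b were dim its fall may be larger than measured. Acaa1b has a close relative, Acaa1a, whose transcripts could reach the same probes, and Acaa1a fell too (log2 fold change -1.57, SE 0.34, adjusted p = 0.0273), a call lost in 4 of the 6 fits without 1 array (highest adjusted p = 0.1). The calls were lost for Decr2 without transgenic replicate 3, control replicate 2 or control replicate 3 (adjusted p = 0.0532 to 0.0589), for Hsd17b4 without transgenic replicate 1, transgenic replicate 2, transgenic replicate 3, control replicate 2 or control replicate 3 (adjusted p = 0.0552 to 0.099), for Hacl1 without transgenic replicate 1, transgenic replicate 3, control replicate 2 or control replicate 3 (adjusted p = 0.0603 to 0.0805) and for Acaa1b without transgenic replicate 1, transgenic replicate 2, transgenic replicate 3, control replicate 2 or control replicate 3 (adjusted p = 0.076 to 0.126). With sex as a block Hsd17b4 and Acaa1b did not pass (adjusted p = 0.06 and 0.0693).

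Ehhadh, the L-bifunctional enzyme of the peroxisome and a classical PPARA target, had the largest difference of these 9 genes but missed the threshold. Its values were 7.72, 8.76 and 8.72 in the arrays labelled transgenic, against 9.25, 11.12 and 11.02 in the controls. The groups did not overlap, yet control replicate 1 differed from the mean of the other controls by -1.82, and the log2 fold change of -2.06 (SE 0.56, a 4.17-fold lower level) had an adjusted p of 0.0527. Without control replicate 1 it was -2.67 (adjusted p = 0.00529), and the replicate block gave an adjusted p of 0.00526. The other peroxisomal genes had higher means without passing. Acox2, the oxidase of branched chains and bile acid intermediates, had values of 7.72, 9.43 and 7.98 in the arrays labelled transgenic, against 7.001, 7.38 and 7.38 in the controls, so transgenic replicate 2 stood well above the other arrays of its group (log2 fold change 1.12, SE 0.44, adjusted p = 0.136). Eci2, an isomerase of peroxisomes and mitochondria, had values of 9.49, 9.16 and 9.85 in the arrays labelled transgenic, against 8.91, 8.94 and 9.01 in the controls. Pex11a, which drives the proliferation of peroxisomes, had values of 10.19, 10.81 and 10.68 in the arrays labelled transgenic, against 10.003, 9.83 and 10.11 in the controls. In both the transgenic arrays were all above the controls, with log2 fold changes of 0.55 (SE 0.17, adjusted p = 0.0767) and 0.58 (SE 0.18, adjusted p = 0.0719). Eci2 passed with the replicate block (adjusted p = 0.0463) and without transgenic replicate 2 (adjusted p = 0.0194), and Pex11a without transgenic replicate 1 (adjusted p = 0.032).

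The acyl-CoA thioesterases, which release free fatty acids from CoA in different compartments, did not move together, with Acot1 and Acot2 rising and Acot8 and Acot12 not passing. Acot2, the mitochondrial enzyme, had values of 12.10, 11.30 and 12.57 in the arrays labelled transgenic, against 9.99, 8.99 and 9.45 in the controls. Acot1, its cytosolic relative, had values of 8.07, 6.81 and 8.42 in the arrays labelled transgenic, against 6.34, 5.49 and 5.80 in the controls. For both, the lowest transgenic array was replicate 2 and the highest control was replicate 1, and the groups stayed apart. Acot2 was 5.71-fold higher (log2 fold change 2.51, SE 0.39, adjusted p = 0.0116) and Acot1 3.7-fold higher (log2 fold change 1.89, SE 0.44, adjusted p = 0.0347). Acot2 lost its call without control replicate 3 (adjusted p = 0.0563), and Acot1 without transgenic replicate 1, transgenic replicate 3, control replicate 2 or control replicate 3 (adjusted p = 0.111 to 0.122). The peroxisomal Acot8 had values of 8.74, 8.62 and 8.96 in the arrays labelled transgenic, against 9.04, 9.15 and 9.34 in the controls. It did not pass (log2 fold change -0.40, SE 0.12, adjusted p = 0.0731) except with the replicate block (adjusted p = 0.034), after renewed quantile normalization (adjusted p = 0.0483) and without control replicate 1 (adjusted p = 0.0463), each time lower. Acot12, a cytosolic thioesterase of acetyl-CoA, had values of 8.09, 8.89 and 9.07 in the arrays labelled transgenic, against 7.99, 10.37 and 10.99 in the controls. Here control replicate 1 was the lowest of the 6 arrays, and the log2 fold change moved to -1.996 (adjusted p = 0.0113) without it, against -1.10 (adjusted p = 0.396) with it.

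Acot2 and Acot1 stand first in a row of 6 related genes on chromosome 12 of the RefSeq table, followed by Acot4, Acot3, Acot5 and Acot6. Of the 6 genes in the row 5 rose, against 8.97% of all genes. Acot5 rose by 1.63 on the log2 scale (SE 0.33, adjusted p = 0.0241), Acot6 by 0.98 (SE 0.23, adjusted p = 0.0345) and Acot4 by 0.56 (SE 0.10, adjusted p = 0.0187), and each lost its call without at least 1 array, where the highest adjusted p was 0.0959 for Acot5, 0.121 for Acot6 and 0.0786 for Acot4. Acot3 was dim in both groups and did not pass (adjusted p = 0.188). These genes are close relatives, so their probes may read each other's transcripts and their single values are uncertain. The nearest 4 measured genes before the row, Papln, Numb, Heatr4 and Riox1, did not pass, with log2 fold changes from -0.43 to 0.36. Of the nearest 4 after it, Dnal1, which adjoins Acot6 and encodes a dynein light chain, rose by 1.56 (SE 0.32, adjusted p = 0.024) and Mideas by 0.74 (SE 0.17, adjusted p = 0.0343), while Pnma1 and Ptgr2 did not pass. The neighbours, Acot3 to Acot6 and Acaa1a were singled out after the values were seen.

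**Figure D3:**
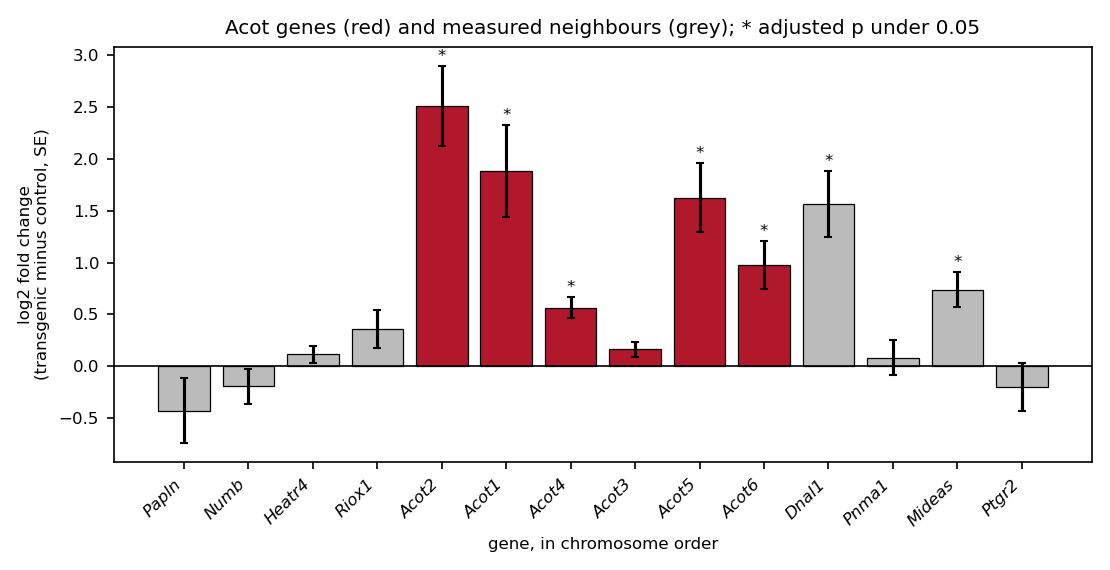
Log2 fold change with its standard error for the 6 Acot genes (red) and the 4 nearest measured genes on each side (grey), in chromosome order, with asterisks for an adjusted p under 0.05. Acot2 has the tallest bar at 2.51 and Acot3 the shortest of the red bars at 0.16, and on the right Dnal1 reaches 1.56.

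The start regions of Acot2 and Acot1 are shown because these genes rose together. Each window runs from 250 bases before the annotated start to 50 after it, from RefSeq on GRCm38.p6, 5′ to 3′ along the gene. The capitals mark the longest run of letters that both windows hold, of 9 bases.
Acot2, chr12:83987611-83987910, plus strand: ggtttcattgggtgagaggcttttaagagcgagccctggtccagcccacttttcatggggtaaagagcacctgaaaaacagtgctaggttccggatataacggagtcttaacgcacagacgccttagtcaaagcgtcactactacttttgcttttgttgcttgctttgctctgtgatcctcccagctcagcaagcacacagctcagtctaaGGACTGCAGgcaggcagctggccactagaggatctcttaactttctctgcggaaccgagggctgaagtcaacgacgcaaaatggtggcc
Acot1, chr12:84009252-84009551, plus strand: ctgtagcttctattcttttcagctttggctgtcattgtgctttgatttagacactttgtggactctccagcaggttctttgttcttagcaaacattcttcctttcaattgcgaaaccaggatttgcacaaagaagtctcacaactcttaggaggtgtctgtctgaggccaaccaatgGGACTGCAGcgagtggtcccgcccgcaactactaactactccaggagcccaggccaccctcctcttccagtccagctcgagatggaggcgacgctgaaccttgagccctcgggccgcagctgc
In a global alignment 45.7% of columns were identical. The windows of Acot3, Acot4 and Acot5 had 44.8% to 47.5% of columns identical with that of Acot2. Their longest runs shared with Acot2 were of 7 to 9 bases, 9 of them in Acot3, which did not pass. Neither the run length nor the identity sets Acot1 and Acot2 apart.

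The windows of all genes with an entry were searched on both strands for the direct repeat to which PPARA binds with its retinoid X partner, AGGTCANAGGTCA, allowing 2 mismatches outside the N. Of the 35 genes, 29 had an entry, with 32 windows in all, and 3 windows (9.38%) held a match, against 3.86% of all 32851 windows. They belong to Etfa, which fell, and to Acot12 and Acox2, which did not pass, and are shown with the match in capitals.
Etfa, chr9:55512194-55512493, minus strand: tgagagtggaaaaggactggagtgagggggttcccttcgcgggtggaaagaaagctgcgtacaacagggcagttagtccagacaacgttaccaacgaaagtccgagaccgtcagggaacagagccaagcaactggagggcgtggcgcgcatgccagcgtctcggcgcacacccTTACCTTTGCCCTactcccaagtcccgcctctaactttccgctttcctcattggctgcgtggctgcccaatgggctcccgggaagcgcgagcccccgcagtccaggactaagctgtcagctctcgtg
Acot12, chr13:91741271-91741570, plus strand: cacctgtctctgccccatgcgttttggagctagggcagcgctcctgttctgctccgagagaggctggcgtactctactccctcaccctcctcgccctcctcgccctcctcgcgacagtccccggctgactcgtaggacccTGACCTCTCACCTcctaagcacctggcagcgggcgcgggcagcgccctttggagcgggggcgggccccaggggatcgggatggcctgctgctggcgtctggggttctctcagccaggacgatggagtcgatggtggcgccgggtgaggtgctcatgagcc
Acox2, chr14:8258790-8259089, minus strand: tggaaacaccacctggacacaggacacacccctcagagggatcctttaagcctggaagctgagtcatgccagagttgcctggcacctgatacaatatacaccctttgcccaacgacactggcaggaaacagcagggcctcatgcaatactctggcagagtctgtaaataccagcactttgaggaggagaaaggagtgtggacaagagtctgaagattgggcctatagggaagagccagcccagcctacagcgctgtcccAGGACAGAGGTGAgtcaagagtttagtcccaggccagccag
The match began 77 bases before the start in Etfa and 110 before it in Acot12, both on the opposite strand, and 9 bases after it in Acox2, in 1 of its windows. The windows of Acot2, Acot1 and Pdk4 held no match in these letters. A match is a description of the sequence and not a measured site.

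Of the regulators, the coactivator gene fell and the receptor gene did not pass. Ppargc1a had values of 9.03, 9.15 and 9.17 in the arrays labelled transgenic, against 10.36, 10.69 and 10.87 in the controls. Its groups lay more than 1 log2 unit apart, the level was 2.87-fold lower (log2 fold change -1.52, SE 0.14, adjusted p = 0.00329), and its second probe set had a log2 fold change of -1.53. The call held without any single array and in both blocked fits. Ppara had values of 8.40, 8.30 and 9.17 in the arrays labelled transgenic, against 9.53, 9.04 and 9.27 in the controls. Transgenic replicate 3 lay inside the control range while the other transgenic arrays lay below it (log2 fold change -0.65, SE 0.26, adjusted p = 0.133), and without that array Ppara passed at -0.93 (adjusted p = 0.0473). In a list of 20 other measured regulators and partners, 6 fell and 1 rose (35%, against 18.6% of all genes). The riser was Pparg, at 0.79 (SE 0.13, adjusted p = 0.0146). Those that fell included Ppargc1b, the relative of Ppargc1a, at -0.81 (SE 0.08, adjusted p = 0.0043), the retinoid X receptor genes Rxra at -1.65 (SE 0.31, adjusted p = 0.0189) and Rxrb at -0.61 (SE 0.10, adjusted p = 0.0155). Of these, Pparg, Rxra and Rxrb each lost the call without at least 1 array, where the highest adjusted p was 0.0661, 0.0791 and 0.0643. The list's median was -0.10, and with sex as a block 3 of the 20 fell and 1 rose (20%, against 10.8% of all genes).

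The PPARA targets outside the oxidation pathway had SDs of 0.98 to 1.97 within the controls, and none of the 4 measured passed. Pdk4, the kinase that shuts pyruvate out of oxidation, had values of 10.58, 10.53 and 11.85 in the arrays labelled transgenic, against 7.60, 8.15 and 10.62 in the controls. Angptl4, a secreted inhibitor of lipoprotein lipase, had values of 10.09, 9.72 and 10.98 in the arrays labelled transgenic, against 8.27, 8.41 and 10.38 in the controls. In both genes control replicate 3 lay inside the range of the transgenic arrays and the other controls lay below it. The log2 fold changes were 2.19 (SE 0.83, adjusted p = 0.122) and 1.25 (SE 0.63, adjusted p = 0.229). Without control replicate 3 Pdk4 passed at 3.11 (adjusted p = 0.0381) and Angptl4 was at 1.92 (adjusted p = 0.0592). In same-numbered pairs the transgenic array exceeded the control by 2.98, 2.37 and 1.23 for Pdk4 and by 1.83, 1.31 and 0.60 for Angptl4, and with the replicate block both passed (adjusted p = 0.0132 and 0.0228). Neither passed with sex as a block (adjusted p = 0.112 and 0.15) or without transgenic replicate 3 (adjusted p = 0.318 and 0.505).

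Cidec, a lipid droplet protein that helps droplets fuse, had values of 10.22, 10.62 and 11.19 in the arrays labelled transgenic, against 7.85, 9.57 and 9.52 in the controls. All transgenic arrays were above the controls, with control replicate 1 lowest, and the 3.24-fold higher level did not pass (log2 fold change 1.70, SE 0.51, adjusted p = 0.0688). It passed with the replicate block (adjusted p = 0.0126) and without control replicate 1 (1.13, adjusted p = 0.033), and with genes of a mean log2 under 6 or under 7 left out (adjusted p = 0.0451 and 0.0386). Adipocytes also express Cidec. Of 8 measured adipocyte markers none passed, Adipoq, Fabp4, Lep and Cidea were dim on all 6 arrays, and the median log2 fold change of the 8 was 0.06. Their summed signal was 8.78 to 9.30 in the arrays labelled transgenic and 9.30 to 10.60 in the controls on the log2 scale, and Lipe was the one marker of the 8 with a lower mean by over 0.1 (log2 fold change -1.49, SE 0.49, adjusted p = 0.0868), a gene also listed here as a PPARA target. Vnn1, the pantetheinase of enterocytes, had values of 9.70, 11.03 and 10.73 in the arrays labelled transgenic, against 9.03, 12.31 and 12.55 in the controls. Control replicate 1 was the lowest of all arrays, with a difference of -3.41 from the mean of the other controls, and the log2 fold change was -0.81 (SE 0.97, adjusted p = 0.631) with it and -1.95 (adjusted p = 0.0186) without it.

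**Figure D4:**
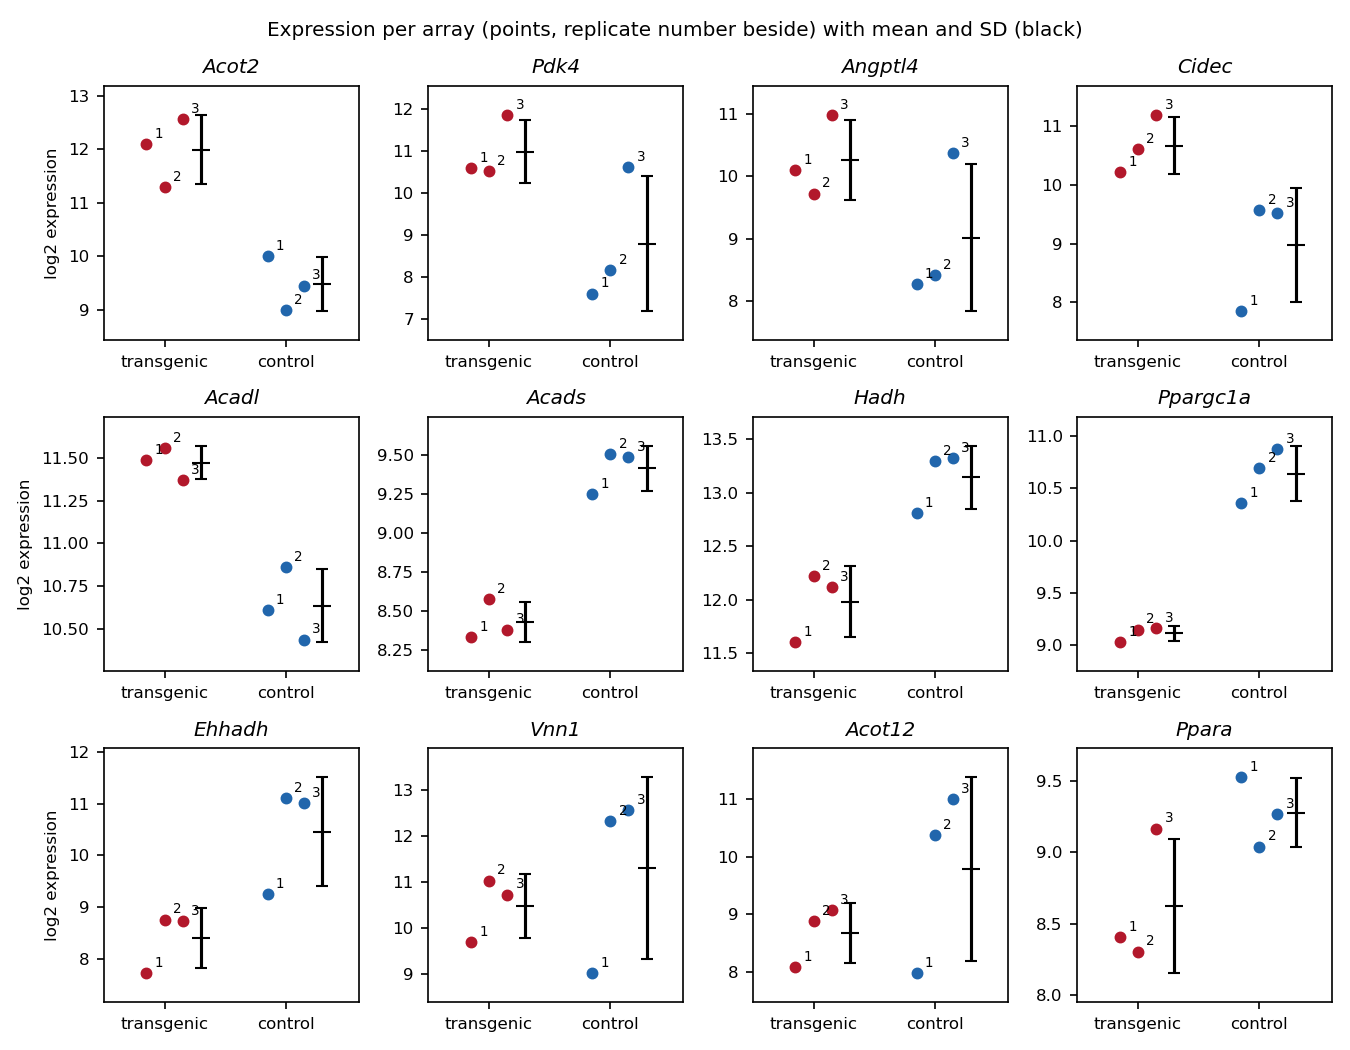
Log2 expression of 12 genes on each array (points, with the replicate number beside them), transgenic left of control, with the mean and SD of each group in black and a separate scale for each gene. Acot2, Acadl, Acads, Hadh and Ppargc1a show separated groups, control 3 is raised in Pdk4 (10.62) and Angptl4 (10.38), and control 1 is lowest in Vnn1 (9.03) and Acot12 (7.99).

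A further 124 measured genes of the same pathways were examined by list. Of these 38 fell and 9 rose, which is 30.6% and 7.26%, against 9.65% and 8.97% of all genes. With the replicate block 55 fell and 11 rose, without control replicate 1 52 and 9, and with sex blocked 22 and 5. Without control replicate 2 or 3, or transgenic replicate 1 or 3, between 8 and 10 fell and 2 or 3 rose. Of 24 other genes of mitochondrial oxidation and ketone metabolism, 11 fell and 1 rose (50%, against 18.6% of all genes). With sex blocked 8 fell and 1 rose (37.5%, against 10.8% of all genes). The riser was Acadsb, a dehydrogenase of short branched chains, at 1.29 (SE 0.13, adjusted p = 0.00385). Ivd, of leucine breakdown, Bdh1, of ketone metabolism, and Pcca, of propionate metabolism, were at -0.99, -0.94 and -0.91 (adjusted p = 0.00319, 0.00329 and 0.00361). The median of this list was -0.45.

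Of 34 other peroxisomal enzymes and transporters, 13 fell and 4 rose (50%, against 18.6% of all genes), with a median of -0.56. With sex blocked 6 fell and 3 rose (26.5%, against 10.8% of all genes). Pipox, the peroxisomal sarcosine and pipecolate oxidase, was 4.76-fold lower (log2 fold change -2.25, SE 0.25, adjusted p = 0.00501), and Tysnd1, which processes imported enzymes, was at -0.80 (adjusted p = 0.00541). The largest rise after that of Acot5 was that of Agps, an enzyme of ether lipid synthesis, with 1.53 (SE 0.11, adjusted p = 0.00169), and the other risers were Acot4 and Acot6. Of 12 peroxins, which build the organelle, 4 fell and none rose (33.3%, against 18.6% of all genes), with a median of -0.38. Pex10 was among those that fell, at -1.34 (adjusted p = 0.011). In the fit with sex as a block 3 peroxins fell (25%, against 10.8% of all genes). Of 34 other reported PPARA targets 4 fell and 3 rose (20.6%, against 18.6% of all genes). With the replicate block 11 fell and 4 rose (44.1%, against 25.8% of all genes). Leaving out control replicate 1 gave 8 falls and 2 rises (29.4%, against 27.8% of all genes). With sex as a block 2 fell and none rose (5.88%, against 10.8% of all genes). Cyp4f15, a cytochrome P450, was at -0.59 (adjusted p = 0.0159), and Pdk3, a relative of Pdk4, at -0.84 (adjusted p = 0.021). Gpd1, the glycerol phosphate dehydrogenase, was at -2.12 (adjusted p = 0.0299), and Hilpda, a lipid droplet protein that inhibits lipolysis, rose by 1.89 (adjusted p = 0.0254). With 1 array left out, the highest adjusted p was 0.0526 for Pex10, 0.0699 for Cyp4f15, 0.0805 for Pdk3, 0.112 for Gpd1 and 0.0993 for Hilpda, while Acadsb, Ivd, Bdh1, Pcca, Pipox, Tysnd1 and Agps passed in all 6 such fits.

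**Figure D5:**
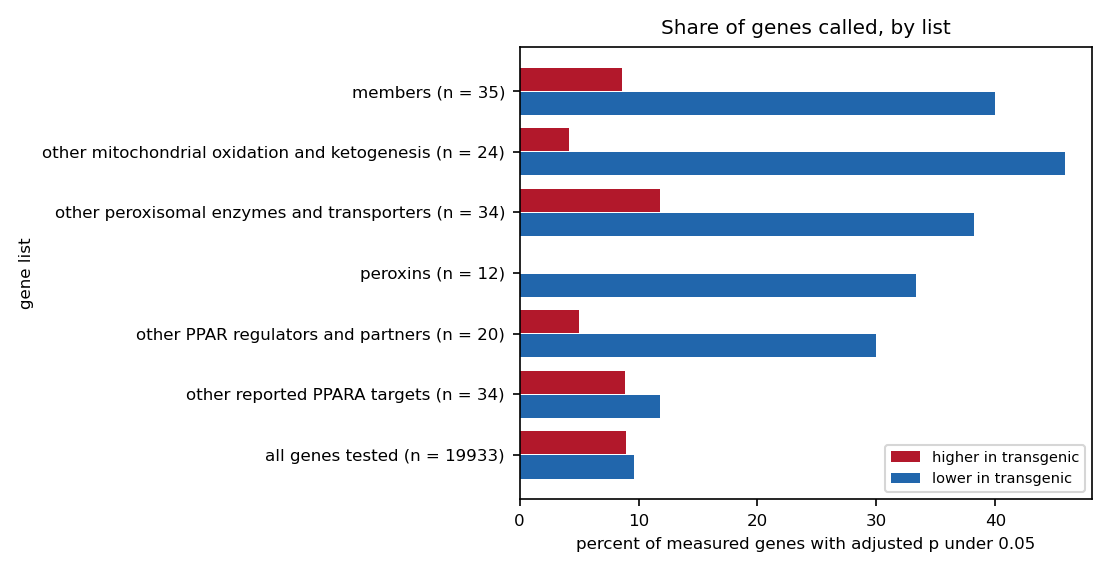
Percent of measured genes with an adjusted p under 0.05, higher (red) and lower (blue) in the arrays labelled transgenic, for the 35 genes, 5 lists of other pathway genes and all genes tested. The 35 genes show 40.0% lower and 8.57% higher, against 9.65% and 8.97% of all genes.

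Markers of several cell types moved with the groups, and those of enterocytes also with control replicate 1. In bulk epithelium fewer cells of a type and less RNA per cell cannot be told apart. Relative to the control mean, the median of the 35 genes was -0.77, -0.55 and -0.30 in the arrays labelled transgenic, against -0.28, 0.09 and 0.18 in the controls. The median of 22 absorptive enterocyte markers was -2.10, -0.16 and -0.74 in the arrays labelled transgenic, against -0.68, 0.37 and 0.35 in the controls. Transgenic replicate 1 was lowest and control replicate 1 lowest among the controls in both lists. Of the 22 markers 20 had lower means, with a median log2 fold change of -1.08, and 2 fell (9.09%, against 9.65% of all genes lower). With the replicate block 13 fell (59.1%, against 13.1% of all genes lower). Without control replicate 1 the falls were 4 (18.2%, against 14.4% lower), and with sex as a block none fell. The summed signal of the 22 spanned 15.93 to 17.18 in the arrays labelled transgenic and 16.69 to 17.61 in the controls on the log2 scale. Of 11 measured crypt and proliferation markers Olfm4, Ascl2 and Axin2 fell (27.3%, against 9.65% of all genes lower), and all 3 passed without any single array. Cdk1, Mcm2, Pcna and Mcm5 had higher means without passing (log2 fold changes 0.76, 0.45, 0.25 and 0.22). Without control replicate 1, Cdk1, Mcm2 and Pcna passed as higher (adjusted p = 0.0247, 0.0344 and 0.0338). Olfm4, a stem cell marker, was 9.48-fold lower (log2 fold change -3.24, SE 0.35, adjusted p = 0.00485), and the list's median log2 fold change was -0.26. All 12 measured goblet, Paneth, tuft and enteroendocrine markers had lower means. Chgb, Gcg and Neurog3 fell (25%, against 9.65% of all genes lower), each in 2 of the 6 fits without 1 array. Of 12 myeloid markers Ly6g, Cd14 and S100a9 rose (25%, against 8.97% of all genes higher), and the list's median was 0.20. The other 9 did not pass, among them S100a8, Mpo and Itgam (adjusted p = 0.338, 0.852 and 0.871). The summed signal of the 12 was 13.33 to 13.70 in the arrays labelled transgenic and 11.68 to 12.05 in the controls. It differed with that of Ly6g, at 12.98 in the arrays labelled transgenic and 4.93 in the controls. Lyz2, the other bright marker, was at -0.20 (adjusted p = 0.642). Of 13 measured lymphocyte markers 10 fell (76.9%, against 9.65% of all genes lower), and 7 with sex as a block (53.8%, against 5.47% lower). Only Itgae and Nkg7 kept the call without any single array. The summed signals of the 13 were 10.08 to 11.20 in the arrays labelled transgenic and 12.32 to 12.99 in the controls. The part of these markers in the results above was not tested. Across the 35 genes control replicate 1 was below both other controls in 27, and at least 1 log2 unit below each of them in 5 (Crat, Ehhadh, Acot12, Vnn1 and Cidec). For Eci1, Abcd3 and Acadl control replicate 1 differed from the mean of the other controls by less than 0.1.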

How the data were processed

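Jejunal epithelial RNA was hybridised to 6 Affymetrix Gene 1.0 ST arrays, 3 titled transgenic and 3 titled control, which the labels call biological replicates. The authors deposited log2 expression per probe set, with nothing pooled, and the submitters' processing notes name Partek and RMA without versions. RMA removes global shifts and compresses small changes of dim probe sets. No source used here names a genome build for the files. Of 28350 probe sets 21780 named 1 gene, 1618 several and 4952 none here. Symbols were updated by gene identifier from RefSeq (GRCm38.p6), matching 21689 of 21780. Each of 19933 genes took its 1-gene probe set with the highest mean, which left Hadhb and Ppargc1a with a second one. Genes were not filtered.

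The comparison of the groups used limma 3.58.1 under R 4.3.3 (group as the only term, two-sided, Benjamini-Hochberg over all genes, threshold 0.05), tested on simulated data. The genes and lists were chosen with earlier results of these data known. Values per array are given for genes that passed, for Ppara and Ppargc1a and for genes whose call changes without 1 array or with the replicate block, and other pathway genes, up to 4 per list with the lowest p first, only where they passed. Fits with 1 array left out have fewer degrees of freedom. Deviations from the group means correlated by 0.52, 0.41 and 0.13 in the pairs numbered 1, 2 and 3. Transgenic replicate 2 with control replicate 3 gave 0.32, above pair 3, and the other unmatched pairs lay between -0.44 and -0.006. The number is thus only a possible pairing, and the fit with it as a block is given beside results it changes. Such deviations cancel within a group, and no label says what a number shares. Sex was read from Xist and Y-linked genes: control replicates 1 and 3 and transgenic replicate 3 were female. The number of arrays limits the precision.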

Additional observations from a re-analysis of the deposited data

How the results depend on the processing

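The 35 genes gave 696 alternative values, of which 577 kept their direction and side of the threshold, 74 lost a call, 41 gained a call and 4 changed sign. The sign changes were those of Cpt1a, at 0.17 with array weights, 0.073 with sex as a block, 0.10 without transgenic replicate 2 and 0.15 without control replicate 1 (range with 1 array left out -0.19 to 0.15), and the cause was not tested. The count of 14 falling genes became 4 at an adjusted p under 0.01 and 7 with sex as a block, and that of 3 rising genes 7 with the replicate block, 6 with array weights, 6 at 0.10 and 0 at 0.01. Among other pathway genes the 38 falls became 7 at 0.01, 11 with a change of at least 1 log2 unit, 59 with array weights and 22 with sex as a block, and the 9 rises became 2, 4, 15 and 5 under these settings and 14 at 0.10. With 1 array left out the ranges were 4 to 21 falls and 2 to 4 rises among the 35 genes, and 8 to 52 falls and 2 to 11 rises among the others. The median log2 fold change of the 35 genes stayed between -0.64 and -0.36 in these fits and was -0.53 with the replicate block. The block, which paired same-numbered arrays, gave 18 falls among the 35 genes and 55 falls and 11 rises among the others, and took no call away. Stricter thresholds make fewer calls by construction, and the causes of the other shifts were not tested. No background flags were used here, so dim values such as those of Acaa1b have no measured floor.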
